A study of Mus musculus with 391 samples.

Results

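The MHC class II-high border cells are 55 single cells that carry macrophage genes of the brain's borders together with a high level of H2-Aa, the gene for an MHC class II alpha chain. They were chosen from 280 cells that the labels put in a microglia class, among 391 cells of adult mouse brain in all. A cell was taken where Sall1, Adgrg1 and Slc2a5, genes of microglia inside the brain tissue, summed to less than 200 CPM, the unit of read counts scaled by depth that is used here. Stab1, Ms4a7 and Pf4, genes of border macrophages, had to sum to 300 CPM or more, and H2-Aa had to reach 1500 CPM. CPM is the number of reads of a gene divided by all gene reads of the cell or group, times 1000000. It does not correct for gene length, so levels are compared between groups for 1 gene and not between genes.

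The study isolated vascular fragments from brain, digested them to single cells, sorted these into plates and sequenced each by Smart-seq2, which reads whole transcripts without molecular identifiers. The labels give the cells as adult mouse and name no strain, sex, treatment or genotype, and no label ties a cell to an animal. The microglia class came from plates A and B, named here from the column names, and the remaining 111 cells form an endothelial class. With each class as 1 sample there is no test, and ratios and intervals describe these cells only.

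MHC class II molecules are pairs of an alpha and a beta chain that show peptides to CD4 T cells. The invariant chain, encoded by Cd74, guides them to the endosome, where H2-DM exchanges its fragment for a peptide, while the transactivator Ciita switches the whole gene set on through factors bound to conserved promoter boxes. Border-associated macrophages sit in the meninges, around vessels and in the choroid plexus, carry scavenger receptors such as Mrc1, and are known to include cells rich in MHC class II and cells poor in it.

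The promoters of 3 of these genes are shown because the genes differ in level between the groups and share a promoter box. The sequences are from RefSeq for build GRCm38.p6 and run from 250 bases before to 50 bases after the gene start, 5′ to 3′ on the gene's strand. They lie at chr17:34287774-34288073 on the minus strand for H2-Aa, and on the plus strand at chr17:34305617-34305916 for H2-Eb1 and at chr17:34152941-34153240 for H2-DMb1. Capitals mark the core of the Y box, ATTGG or CCAAT on the other strand, with the longer form CTGATTGG in capitals where it is present.
H2-Aa: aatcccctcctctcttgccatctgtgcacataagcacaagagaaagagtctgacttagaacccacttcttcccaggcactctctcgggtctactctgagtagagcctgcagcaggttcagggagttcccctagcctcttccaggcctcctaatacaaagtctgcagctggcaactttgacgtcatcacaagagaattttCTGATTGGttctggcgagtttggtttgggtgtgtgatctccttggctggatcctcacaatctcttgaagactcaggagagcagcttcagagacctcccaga
H2-Eb1: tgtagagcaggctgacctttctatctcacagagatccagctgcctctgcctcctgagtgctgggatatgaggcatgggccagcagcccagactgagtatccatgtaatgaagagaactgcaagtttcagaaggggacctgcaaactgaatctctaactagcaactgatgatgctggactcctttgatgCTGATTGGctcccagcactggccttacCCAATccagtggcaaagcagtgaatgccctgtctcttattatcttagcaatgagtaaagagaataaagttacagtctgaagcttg
H2-DMb1: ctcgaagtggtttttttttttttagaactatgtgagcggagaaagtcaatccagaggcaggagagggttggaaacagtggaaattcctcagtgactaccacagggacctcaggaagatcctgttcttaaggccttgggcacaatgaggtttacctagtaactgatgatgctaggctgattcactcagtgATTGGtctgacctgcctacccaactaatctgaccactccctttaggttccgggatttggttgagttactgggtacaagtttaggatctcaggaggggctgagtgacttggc
Promoters were found for 8 of 10 MHC class II genes looked up, and all 8 genes held the core in at least 1 promoter. The core is common, present in 37.4% of 32851 promoters of that length. The longer form was present in 4 of the genes, H2-Aa, H2-Eb1, H2-Eb2 and H2-Oa, and in 4.10% of all promoters. A match is a run of letters and not a measured binding site.

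The other class cells fell into 3 groups for comparison. MHC class II-low border cells (128 cells) meet the same rule with H2-Aa below 1500 CPM. Sall1/Adgrg1/Slc2a5-high cells (55) sum to 200 CPM or more for those genes and are the parenchyma-like part of the class. Of these 55 cells, 16 also reached 300 CPM in the border gene sum, which went up to 8774 CPM. Border-gene-low cells (42) are below both sums, and the comparison with them was added after their H2-Aa level had been seen. The MHC class II-high border cells made up 19.6% of the class (exact Clopper-Pearson interval 15.2 to 24.8), with 27 of 133 cells on plate A and 28 of 147 on plate B. Intervals here and below are at 95% and cover counting error only.

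Depth was close to that of the MHC class II-low border cells. Gene reads per cell ran from 40438 to 415445 with a median of 136813 in the MHC class II-high border cells, and their median was 124570 in MHC class II-low border cells, 196450 in Sall1/Adgrg1/Slc2a5-high cells and 188526.5 in border-gene-low cells. A median of 2619 genes was read per cell against 2476.5 in MHC class II-low border cells. With every cell thinned to 60000 reads, which left out 8 and 13 shallower cells, the medians were 1996 and 1979.

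H2-Aa chose the cells, so its values are a description. It ran from 1533 to 18951 CPM with a median of 6717. The lowest 2 cells inside the limit stood at 1533 and 1547 CPM, and the highest 2 outside it at 1211 and 941. The border gene sum ran from 438 to 11522 CPM with a median of 2616, below the median of 5670 in MHC class II-low border cells. Its lowest values inside the limit were 438 and 504 CPM, and the highest of cells that met the other conditions were 269 and 71.2. For the microglia gene sum, the highest value inside was 97.7 CPM, and 1 cell lay outside at 460. High H2-Aa was not confined to these cells: 40 of the 42 border-gene-low cells and 3 of the 55 Sall1/Adgrg1/Slc2a5-high cells also reached 1500 CPM.

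**Figure D1:**
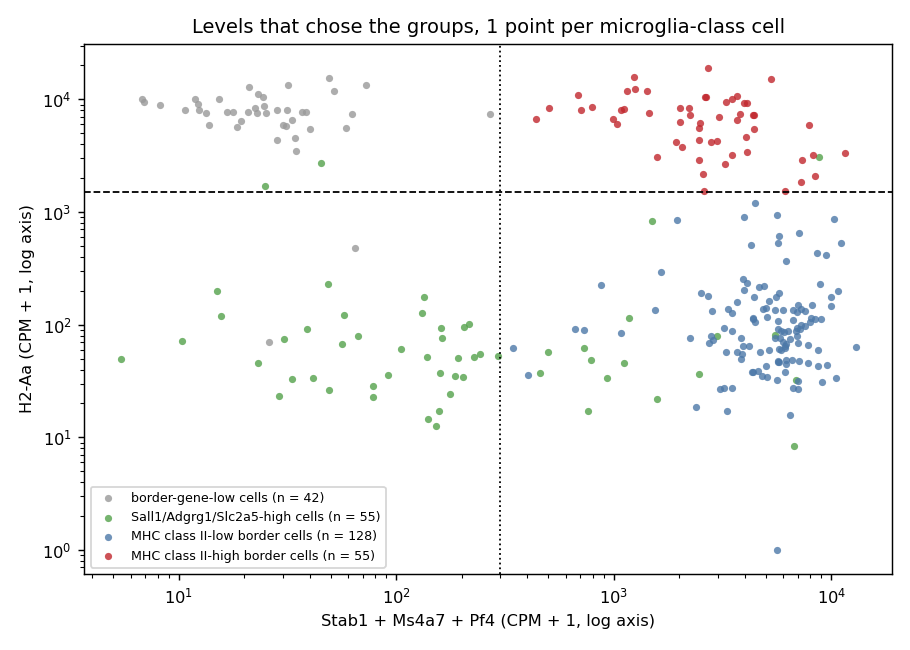
Summed CPM of Stab1, Ms4a7 and Pf4 (x) against CPM of H2-Aa (y), both plus 1 on log axes, with 1 point per microglia-class cell and lines at the limits of the rule. The 55 MHC class II-high border cells fill the upper right corner, and 40 of 42 border-gene-low cells lie above the H2-Aa limit on the left.

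The other MHC class II genes were high in nearly all of these cells. H2-Ab1, the beta chain that pairs with the product of H2-Aa, ran from 79.4 to 19175 CPM with a median of 6356, against 7.80 to 2697 with a median of 88.7 in MHC class II-low border cells. H2-Eb1, a beta chain of the other class II molecule, ran from 100.2 to 15383 CPM with a median of 5949, against 0 to 3005 with a median of 79.8. The groups overlapped at their edges. For H2-Ab1, 42 of the 55 cells lay above the highest MHC class II-low border cell, and 38 of 55 did for H2-Eb1. Summed over the cells, H2-Ab1 stood at 5377 (exact Poisson interval 5328 to 5426) against 173 CPM, a ratio of 31.1 (exact conditional binomial interval 30.0 to 32.3). H2-Eb1 stood at 5095 against 169, a ratio of 30.2 (29.1 to 31.3). On the scale of log2(CPM + 1), the ratio of H2-Ab1 was 5.46 for the cells of plate A and 4.63 for those of plate B. H2-Eb2, a further beta chain, was near 0 in every group, with reads in 7 of the 55 cells and a summed level of 0.939 CPM.

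Cd74, the invariant chain, ran from 467 to 30979 CPM with a median of 10289, against 34.8 to 8004 with a median of 322 in MHC class II-low border cells. Of the 55 cells, 37 lay above all 128 of those cells. The summed ratio was 12.0 (11.8 to 12.2). Cd74 thus had a smaller ratio than the class II chains, with 737 CPM in the MHC class II-low border cells. Without H2-Aa, which the rule used, H2-Ab1, H2-Eb1 and Cd74 together took 1.93% of all gene reads, against 0.108% in MHC class II-low border cells, 0.109% in Sall1/Adgrg1/Slc2a5-high cells and 2.11% in border-gene-low cells.

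Genes of peptide exchange were higher as well, though less sharply divided. H2-DMa, the alpha chain of the exchange factor, ran from 0 to 5382 CPM with a median of 1665, against 0 to 2743 with a median of 16.0. The groups overlapped widely, with 4 of the 55 cells above the highest MHC class II-low border cell. H2-DMb1, its beta chain, had a median of 561 CPM with 7 of the 55 cells at 0, against a median of 5.76, and a summed ratio of 6.58 (6.28 to 6.90). The second beta chain gene, H2-DMb2, was different: it stood at 1.99 CPM in these cells, against 659 CPM in border-gene-low cells. H2-Oa and H2-Ob encode H2-DO, an inhibitor of exchange, and stood at 17.5 and 91.4 CPM against 231 and 424 in border-gene-low cells. In these cells 89.9% of the H2-Oa reads and 51.9% of the H2-Ob reads came from 1 cell each. H2-Ob was 9.22-fold above MHC class II-low border cells (7.85 to 10.9) and 4.55-fold without its highest cell.

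**Figure D2:**
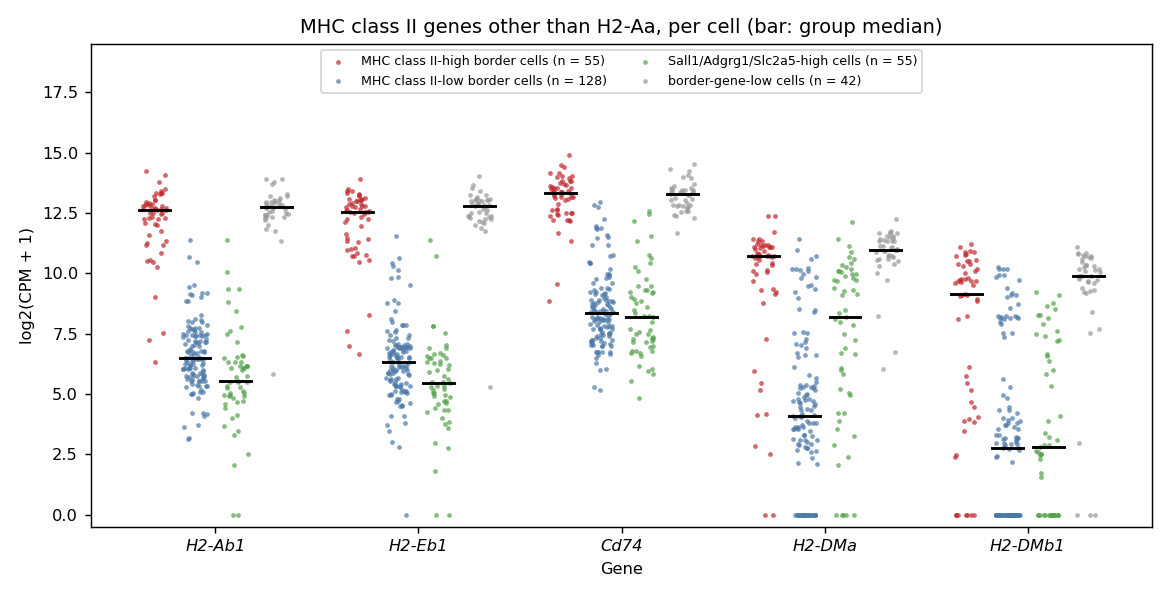
Level of 5 MHC class II genes other than H2-Aa in single cells as log2(CPM + 1), by group, with bars at the group medians. MHC class II-high border cells and border-gene-low cells sit high for H2-Ab1, H2-Eb1 and Cd74, while H2-DMa and H2-DMb1 spread from 0 upward in the MHC class II-high border cells.

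Counts below use 1 rule. A gene was measured at 10 CPM or more in either group with reads in at least 10% of that group's cells, and called higher or lower at 2-fold or more on log2(CPM + 1), summed and within each plate. Against MHC class II-low border cells, 416 of 7495 measured genes (5.55%) were higher and 735 (9.81%) lower, with a median log2 ratio of -0.08 over all measured genes. A single cell carried many of the calls: without the cell richest in the gene, 182 of the 416 and 505 of the 735 were still called. Without the 17 cells that had 10 or more reads of Tmem119, 225 of the 416 and 535 of the 735 were. Beside that background, 3 of 3 measured class II chains were higher, with H2-Aa fixed by the rule. Of 8 measured loading genes, Cd74, H2-DMa, H2-DMb1 and H2-Ob were higher, none was lower, and the median log2 ratio was 1.77. The proteases that trim the invariant chain and antigens were not called. Ctss, cathepsin S, had 4067 CPM against 2286, Lgmn, legumain, 3055 against 3388, and Ctsl, cathepsin L, 392 against 810.

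Ciita, the transactivator, was read in 14 of the 55 cells (25.5%) and reached 1892 CPM in 1 cell, while its median was 0. It was read in 13 of 128 MHC class II-low border cells, where no cell passed 16.0 CPM. The summed level was 109 (102 to 116) against 0.746 CPM, and 29.3% of the reads in the MHC class II-high border cells came from 1 cell. At 10 or more reads, 8 of 55 cells carried Ciita (14.5%, 6.50 to 26.7) against 0 of 128 (up to 2.84%). Most cells with a high class II level thus had no Ciita read at this depth. Among the cells, Ciita did not follow the sum of H2-Ab1, H2-Eb1 and Cd74, with a Spearman rho of -0.02 over 55 cells.

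The factors that bind the X and Y boxes had few reads. Nfyb, a subunit of the Y box factor, was higher, at 156 against 7.30 CPM, and was read in 8 of 55 cells. Rfxank, Rfxap and Nfya were not called, and Rfx5, an X box factor, was under the measured minimum, at 10.6 against 1.28 CPM with reads in 2 cells. Ciita and Nfyb were the 2 higher genes among 9 measured regulators, beside a median log2 ratio of 0.89 for that list that turned to -0.34 on plate A. Cd83 and Marchf1, which raise and lower class II at the surface, were not called, at 430 against 189 and 93.2 against 201 CPM.

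Costimulatory genes gave a mixed picture. Icosl, the ligand of ICOS on T cells, was higher at 114 against 29.2 CPM and was read in 35 of 55 cells against 29 of 128. Cd40, the receptor of T cell help, was higher at 85.1 against 18.3 CPM, and Pvr, a ligand of CD226 and TIGIT, at 83.8 against 9.22, but 38.1% and 50.6% of their reads came from 1 cell each. Without that cell Cd40 was at 54.7 CPM, a ratio of 2.98, and Pvr at 42.4. Cd86 stood at 320 against 475 CPM and Cd80 at 21.2 against 74.0, both ligands of CD28 and neither called. In all, 3 of 10 measured costimulatory genes were higher and none lower.

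MHC class I genes differed less. H2-K1 and H2-D1, classical heavy chains, stood at 2766 against 1662 and 3258 against 1952 CPM, ratios of 1.66 (1.64 to 1.69) and 1.67 (1.64 to 1.70). B2m, the shared light chain, was at 3027 against 2474 CPM. None of these was called. Of 15 measured class I genes, H2-Q7, a non-classical heavy chain, Tap2, a subunit of the peptide transporter, and Nlrc5, the class I transactivator, were higher and none was lower. Tap2 and Nlrc5 were no longer called without their highest cell. The list's median log2 ratio was 0.61, against 4.95 for the class II chains, which include H2-Aa, used by the rule. Class I genes are near-identical copies of each other, as are H2-DMb1 and H2-DMb2 in part, so reads may be split between them and these values are uncertain.

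The markers given for these cells beside the class II genes were carried by part of them. Axl, a receptor for dying cells, ran from 0 to 5423 CPM with a median of 496, against 0 to 3763 with a median of 6.52 in MHC class II-low border cells, and was 2.92-fold higher (2.82 to 3.02). Cd72, an inhibitory receptor, had a median of 4.59 CPM against 0 and was 13.9-fold higher (12.4 to 15.7), with 39.5% of its reads from 1 cell and a ratio of 8.76 without it. At 100 CPM or more, 32 of 55 cells (58.2%, 44.1 to 71.3) carried Axl against 28 of 128 (21.9%, 15.1 to 30.0), and 21 of 55 (38.2%) carried Cd72 against 5 of 128 (3.91%). The groups overlap for both genes. Thinned to 60000 reads, 72.3% of the cells had a read of Axl against 44.3%, and 51.1% one of Cd72 against 10.4%. In border-gene-low cells these thinned shares were 64.3% for Axl and 50% for Cd72, and neither gene was called against that group. In Sall1/Adgrg1/Slc2a5-high cells they were 33.3% and 16.7%. Against those cells Axl was higher in the MHC class II-high border cells and Cd72 was not called.

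Ccr2, the chemokine receptor of monocytes and of some dendritic cells and macrophages, was uneven. Its median was 0 and its highest level 5287 CPM. At 100 CPM or more it was carried by 12 of 55 cells (21.8%, 11.8 to 35.0) against 2 of 128 MHC class II-low border cells (1.56%, 0.190 to 5.53), and by 28 of 42 border-gene-low cells. The summed level was 446 against 98.9 CPM, with log2 ratios of 0.89 on plate A and 7.07 on plate B, so Ccr2 was not called. Both carriers among MHC class II-low border cells at 10 or more reads were on plate A. At 10 or more reads, 12 of the 55 cells carried Ccr2. Of these, 9 carried Mrc1 and all 12 carried Cx3cr1, against 47 and 42 of all 55 cells.

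Plbd1, a phospholipase-like protein of lysosomes, was higher at 536 against 49.6 CPM and was carried at 100 CPM by 25 of 55 cells against 4 of 128. F11r, a junctional adhesion molecule, was higher at 592 against 81.8 CPM, and Fcgr4, an activating Fc receptor, at 228 against 38.9. Ccrl2, which holds chemerin at the surface, was higher at 664 against 200 CPM. The medians of the 55 cells were also set against the other groups. Of 42 border-gene-low cells, 36 lay above that median for Plbd1, 31 for Ccrl2, 15 for F11r and 10 for Fcgr4. Of 55 Sall1/Adgrg1/Slc2a5-high cells it was 0, 33, 48 and 14 in that order. Plbd1, Ccrl2 and F11r were thus not particular to the MHC class II-high border cells within the class. Fcgr4 was not called against either of these 2 groups, and 0 of the 55 cells lay above the highest cell of either.

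Border macrophage genes were lower in these cells than in MHC class II-low border cells, and none of 22 was higher. Called lower were 11 of the 22, with a median log2 ratio of -1.18 for the list (-1.32 on plate A and -1.30 on plate B). Clec4n, a lectin that senses fungi, ran from 0 to 1091 CPM with a median of 0, against 0 to 3332 with a median of 372, and was 15.0-fold lower. Slc40a1, the iron exporter, had a median of 4.14 against 261 CPM, and Ccl24, an eosinophil chemokine, 0 against 181. Cd38, an ectoenzyme, stood at 55.9 against 383 CPM and Clec10a, a galactose lectin, at 95.5 against 605. Ranges overlapped for all 5, and 78.2% of the Slc40a1 reads in the MHC class II-high border cells came from 1 cell.

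Lyve1, the hyaluronan receptor of 1 kind of perivascular macrophage, stood at 6.57 (4.96 to 8.53) against 344 CPM. It was carried at 100 CPM by 1 of 55 cells (1.82%, 0.0460 to 9.72) against 24 of 128 (18.8%, 12.4 to 26.6). Cd163, the receptor for haemoglobin complexes, was lower at 175 against 546 CPM, and Cbr2, a carbonyl reductase, at 381 against 1124. Dab2, an endocytic adaptor, was lower at 1070.2 against 2617 CPM. The other 11 border genes were not called. Mrc1, the mannose receptor, had a median of 1794 CPM against 2789 and was carried at 100 CPM by 48 of 55 cells (87.3%) and 113 of 128 (88.3%). Of macrophage genes outside that list, Apoe, a lipid carrier, stood at 9933 against 10772 CPM, C1qa, of complement, at 4215 against 4216, and Csf1r, the growth factor receptor of macrophages, at 4348 against 4772.

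Egfl7, better known from endothelium, had the largest downward ratio of genes at 50 CPM or more with reads in at least 50% of the MHC class II-low border cells, at 4.81 against 163 CPM and 33.8-fold lower. Of the endothelial list, Egfl7 was the only lower gene among 4 measured, and Kdr, a VEGF receptor, was higher, although not without its highest cell. The 12 endothelial genes summed to a median of 73.4 CPM in these cells (13.3 to 2014), 119 in MHC class II-low border cells and 35123 in the endothelial class. Reads of Cldn5, an endothelial junction gene, were in 90.9% of the 55 cells and 92.2% of MHC class II-low border cells at similar levels, 29.2 and 27.0 CPM. A read alone is therefore not taken as expression here, and levels or cells at 100 CPM or more are given beside most shares of cells with a read. The shares of Ighm, Cd79b and Csf3r below stand without a level.

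**Figure D3:**
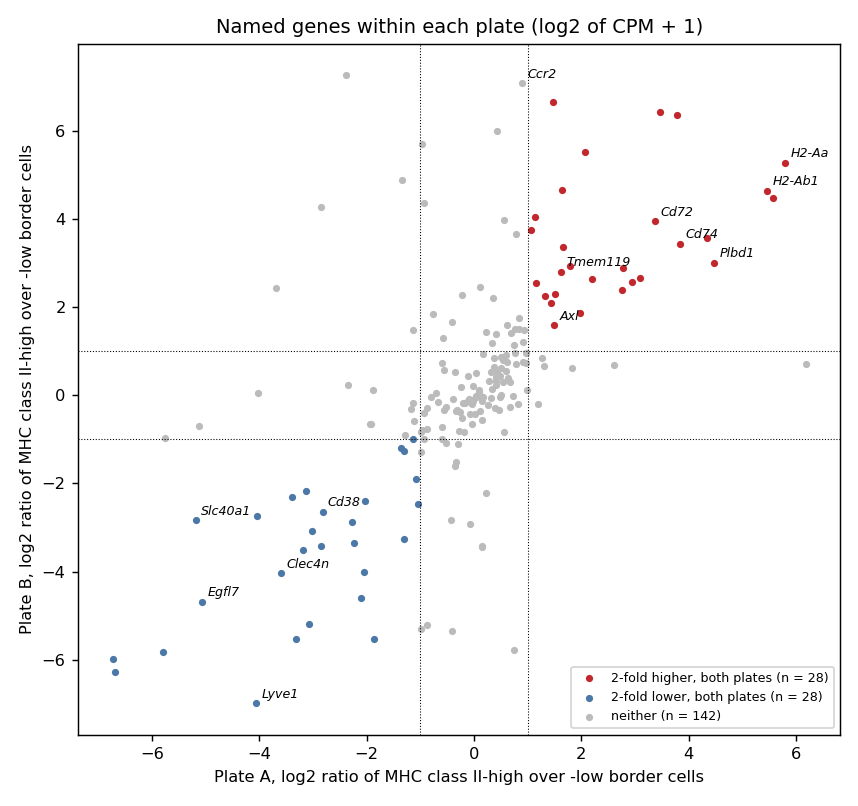
Log2 ratio of CPM + 1 between MHC class II-high and -low border cells on plate A (x) and plate B (y), for the named genes that were measured, with lines at 2-fold. Red points (28 genes) were higher and blue points (28) lower in both plates, and Ccr2 lies above the line on plate B only.

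Some microglia genes were higher than in MHC class II-low border cells. Tmem119, a surface protein of microglia, ran from 0 to 2237 CPM with a median of 14.6, against 0 to 4512 with a median of 8.83. At 100 CPM or more it was carried by 16 of 55 cells (29.1%, 17.6 to 42.9) against 7 of 128 (5.47%, 2.23 to 10.9), and its summed level was 435 against 76.8 CPM. The difference lay in the carriers and not in the typical cell. Olfml3, a secreted glycoprotein of microglia, was higher at 974 against 335 CPM with medians of 99.7 and 14.9. Cx3cr1, the fractalkine receptor, had a median of 2797 CPM against 275, and its log2 ratio of 0.94 within plate A left it uncalled. P2ry12, a purine receptor of microglia, stood at 521 against 527 CPM. Of 14 measured microglia genes, 2 were higher, none was lower and the median log2 ratio was 0.25.

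Within the 55 cells, Tmem119 and F13a1, the A chain of coagulation factor XIII and a border macrophage gene, were seldom together. At 10 or more reads, 2 cells carried both, 15 Tmem119 alone, 23 F13a1 alone and 15 neither. All 10 Tmem119 carriers of plate B lacked F13a1 at that count, and so did 5 of 7 on plate A. The Spearman rho was -0.42 over the 55 cells, -0.29 on plate A and -0.45 on plate B, and Tmem119 also went with gene reads (rho 0.44). These genes were among 16 whose pairs were counted, and the pair was picked after its values had been seen. Of the 17 Tmem119 carriers, 15 also carried Mrc1 and 4 carried Cbr2, against 32 and 16 of the other 38 cells. All 17 carried Cx3cr1, as did 25 of the other 38.

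**Figure D4:**
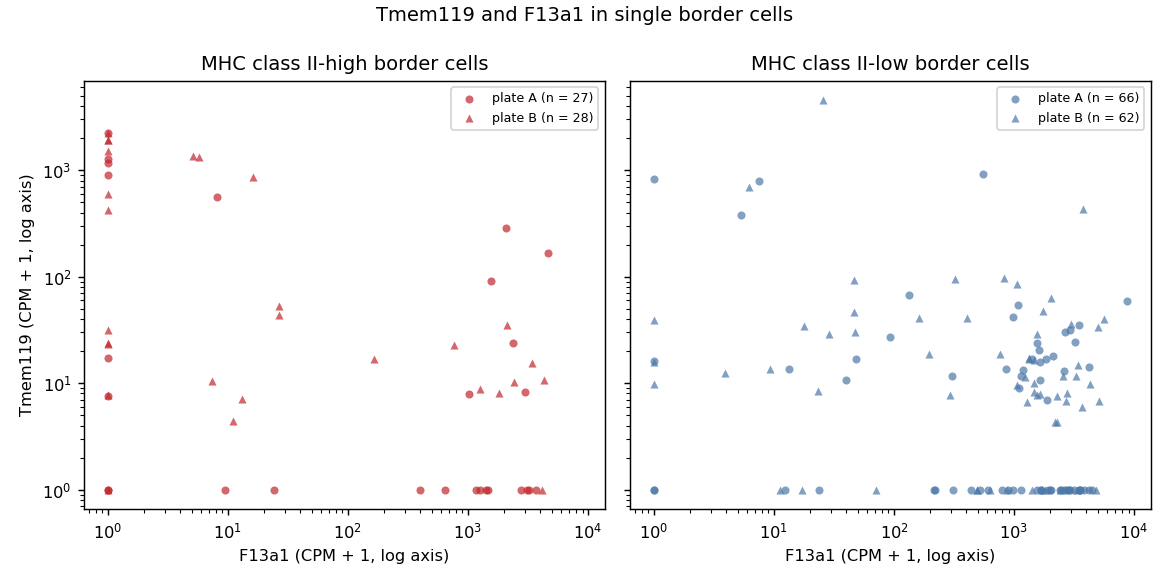
CPM plus 1 of F13a1 (x) and Tmem119 (y) on log axes, with 1 point per cell, MHC class II-high border cells on the left and MHC class II-low border cells on the right, circles for plate A and triangles for plate B. Cells at high Tmem119 lie at low F13a1 on the left panel apart from 2 cells that carry both at 10 reads or more.

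The class II genes moved together from cell to cell. Spearman rho was 0.94 for H2-Ab1 with H2-Eb1, 0.88 for H2-Ab1 with Cd74 and 0.84 for H2-Eb1 with Cd74, over 55 cells that share 2 plates. All were 0.69 or more within each plate. H2-DMa and H2-DMb1 followed the sum of H2-Ab1, H2-Eb1 and Cd74 less closely, with rho of 0.39 and 0.33. That sum went down with gene reads on plate B (rho -0.42) and not on plate A (-0.02), and the part of depth in it was not tested. Cbr2 and Igf1, a growth factor, went the other way, at -0.39 each. Axl, Cd72 and Ccr2 lay between 0.16 and 0.21.

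Against Sall1/Adgrg1/Slc2a5-high cells, 733 of 7712 measured genes (9.5%) were higher and 888 (11.5%) lower. Class II genes stood about as far above these cells as above MHC class II-low border cells: H2-Ab1 was at 5377 against 148 CPM, H2-Eb1 at 5095 against 124 and Cd74 at 8833 against 814. H2-DMa had a smaller ratio, with 607 CPM in the Sall1/Adgrg1/Slc2a5-high cells. Border genes were higher in 12 of 20 measured and lower in none, and Ms4a7 and Pf4 among them were used by the rule. F13a1 stood at 820 against 17.3 CPM, Mrc1 at 1998 against 415 and Apoe at 9933 against 2179. Plbd1, at 1.81 CPM in Sall1/Adgrg1/Slc2a5-high cells, had the largest ratio of genes at 50 CPM or more with reads in at least 50% of the 55 cells.

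Microglia genes were lower in 16 of 20 against Sall1/Adgrg1/Slc2a5-high cells and higher in none, with a median log2 ratio of -2.52, and 3 of the 16 were used by the rule. Tmem119 stood at 435 against 2935 CPM, P2ry12 at 521 against 3363 and Sparc, a matrix glycoprotein, at 64.1 against 3888. The Tmem119 level of single MHC class II-high border cells was lower too. The highest of the 55 reached 2237 CPM, below the median of 2924 in Sall1/Adgrg1/Slc2a5-high cells.

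Border-gene-low cells stood close to these cells in class II chains and apart from them in border, microglia and dendritic cell genes. Of 7824 measured genes, 940 (12%) were higher and 1001 (12.8%) lower in MHC class II-high border cells. H2-Ab1, H2-Eb1 and Cd74 were not called, at 5377 against 6324, 5095 against 6117 and 8833 against 8659 CPM. Ciita was lower, at 109 against 340 CPM, as were H2-DMb2, H2-Oa and H2-Ob. Dendritic cell genes were lower in 12 of 15 measured and higher in none. Napsa, an aspartic protease of dendritic cells, stood at 1.76 (0.985 to 2.90) against 910 CPM, Cd209a, a lectin of monocyte-derived dendritic cells, at 109 against 2354, and Flt3, the growth factor receptor of dendritic cells, at 2.70 against 157.

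Monocyte genes were lower in 8 of 10 measured against border-gene-low cells, and Ccr2 was not called at 446 against 881 CPM. Against MHC class II-low border cells, 1 of 5 measured, Ms4a4c, was higher and none lower, with a median log2 ratio of 1.45. Against Sall1/Adgrg1/Slc2a5-high cells, 2 of 4 measured, Ccr2 and Itgal, were higher and none lower. The list's median sum was 237 CPM in the 55 cells, 30.7 in MHC class II-low border cells and 5043 in border-gene-low cells. In the 55 cells 6 of 18 monocyte genes had no read, Ly6c2, Chil3, Vcan, Hp and Cd177 among them. This did not set them apart. The number was also 6 in MHC class II-low border cells and in Sall1/Adgrg1/Slc2a5-high cells, and 5 in border-gene-low cells. Against border-gene-low cells, C5ar1, the receptor of complement C5a, stood at 531 against 2.95 CPM. That was the largest upward ratio of genes at 50 CPM or more with reads in at least 50% of the 55 cells. Border genes were higher in 14 of 19 measured, with Stab1, Ms4a7 and Pf4 used by the rule, and microglia genes in 11 of 14, Csf1r among them at 4348 against 1318 CPM. The 20 dendritic cell genes summed to a median of 446 CPM (0 to 3402) in MHC class II-high border cells and 7852 in border-gene-low cells. In MHC class II-low border cells the median was 106 CPM, while the level over all reads of the group was 815 CPM against 712, and of 9 genes measured in that comparison none was higher and Zbtb46, a dendritic cell factor, was lower. Xcr1 and Ccr7 had no read in any of the 4 groups.

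Set against all 225 other cells of the class, 225 of 7716 measured genes (2.92%) were higher and 827 (10.7%) lower. That group mixes cells rich and poor in class II, and the ratios of H2-Ab1, H2-Eb1 and Cd74 were 1.74, 1.71 and 1.75 on the log2 scale. Cd72 was higher at 254 against 80.9 CPM, Fcgr4 at 228 against 78.2 and Axl by 1.48 on the log2 scale. Lyz1, a lysozyme, had the largest upward ratio of genes at 50 CPM or more with reads in at least 50% of the cells, at 113 against 7.00 CPM, but 74.9% of its reads came from 1 cell. Dendritic cell genes were lower in 10 of 14 measured and higher in none. Over all reads of a group, the 20 genes of that list summed to 712 CPM in the 55 cells and 7456 in border-gene-low cells. They summed to 815 CPM in MHC class II-low border cells and 529 in Sall1/Adgrg1/Slc2a5-high cells. Against Sall1/Adgrg1/Slc2a5-high cells alone, 2 of 8 measured were higher, Irf4 and Mgl2, and 1 was lower. Border genes were lower in 7 of 21 and Siglec1, a sialic acid receptor, was higher.

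Apart from the rule's genes and all class II genes, the cells did not form a separate cloud. Of each cell's 15 nearest neighbours in a space of 20 principal components, 43.2% on average were other MHC class II-high border cells, 45.0% MHC class II-low border cells, 7.88% border-gene-low cells and 4.00% Sall1/Adgrg1/Slc2a5-high cells. The shares of these groups in the class, in the same order, are 19.6%, 45.7%, 15% and 19.6%. The 45.0% of neighbours in MHC class II-low border cells was thus near that group's share. For 28 of the 55 cells, more than 50% of the neighbours belonged to the same group, against 116 of 128 MHC class II-low border cells and 46 of 55 Sall1/Adgrg1/Slc2a5-high cells. These counts were not adjusted for group size, and a larger group passes 50% more easily. On the second component the median was 1.19, between 23.1 for MHC class II-low border cells and -32.6 for Sall1/Adgrg1/Slc2a5-high cells.

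**Figure D5:**
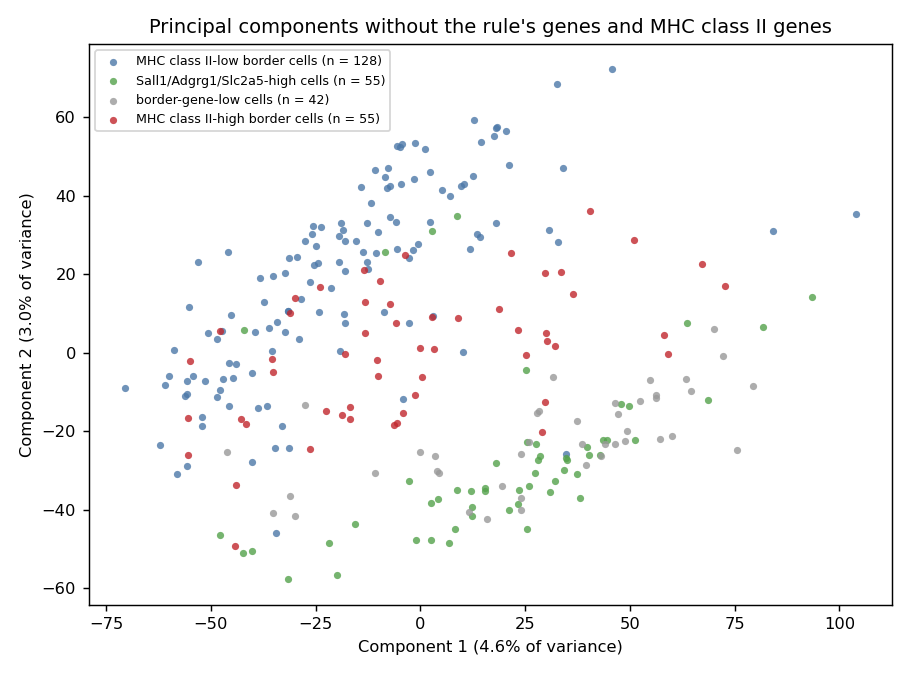
First (x) and second (y) principal component of 2000 variable genes without the rule's genes and the class II genes, 1 point per microglia-class cell, coloured by group, with the percent of variance on each axis. MHC class II-high border cells spread between the MHC class II-low border cells above and the other groups below.

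As a check of the label, the border macrophage list was summed without Stab1, Ms4a7 and Pf4, which the rule used. Its other 19 genes had a median sum of 6380.3 CPM (18.3 to 29256) in these cells, 236 in Sall1/Adgrg1/Slc2a5-high cells, 1615 in border-gene-low cells and 15652 in MHC class II-low border cells. The ranges overlapped. The microglia list without Sall1, Adgrg1 and Slc2a5 summed to medians of 14828, 49099.8, 3238 and 13424 CPM in the groups in the same order. In the 55 cells 11 of 15 lymphocyte genes had no read, Cd3e, Trac and Ms4a1 among them. Ighm, an antibody heavy chain gene, was read in 89.1% of the cells and Cd79b, of the B cell receptor, in 25.5%. These shares were 89.1% and 16.4% in MHC class II-low border cells. They were 94.5% and 21.8% in Sall1/Adgrg1/Slc2a5-high cells, and 90.5% and 9.52% in border-gene-low cells. The list's median sum was 964 CPM, against 703 in MHC class II-low border cells. Of 11 neutrophil genes 8 had no read, and Csf3r, the receptor of a granulocyte growth factor, was read in 41.8%. Csf3r was read in 36.7% of MHC class II-low border cells, 78.2% of Sall1/Adgrg1/Slc2a5-high cells and 23.8% of border-gene-low cells. A well that held more than 1 cell cannot be told from a single cell here, and this was not tested.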

How the data were processed

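The deposited count table holds whole-number read counts of 56941 genes in 391 cells of adult mouse brain, 1 column a cell, in 2 classes per the labels. The submitters' processing notes name GRCm39, SAMtools 1.16.1, featureCounts and Subread 1.4.6-p5. The aligner, annotation, strand setting and duplicate removal were not given in the sources used here. Reads carry no molecular identifiers, so duplicates count as reads and intervals cover counting error only. Without strand, reads of a gene and an overlapping antisense gene cannot be told apart.

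Groups were formed with Python 3.11.15, numpy 2.4.6, scipy 1.17.1 and pandas 2.3.3 from CPM over all gene reads of a cell. Counts were summed over the cells of a group and compared as log2(CPM + 1). Since each class is 1 sample and no label ties cells to animals, cells were not used as replicates and no p-value was computed. The calling code was tested on simulated data, with every border cell drawn from a single mean profile with counting error only. That setting holds no gene carried by a single cell, so it does not show how many calls in the real data are sound.

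The members and gene lists were chosen with earlier results of these data known. Genes named in each comparison are the 10 largest called ratios each way at 50 CPM or more with reads in 50% of the higher group's cells, the genes of the rule and of MHC class II, and of each other list the 4 most abundant members and those with the largest and smallest ratio. Cd163, Cbr2, Olfml3, P2ry12, Icosl, Cd40, Nlrc5, Tap2, Flt3 and the genes named as having no read were chosen after their values were seen, as were Clec7a, Cd52, Cd9 and Cd300a, the 10-read and 100 CPM limits and the gene pairs. Cells were thinned once, with a fixed seed. No doublet caller was run.
Some genes are not reported here.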

Additional observations from a re-analysis of the deposited data

How the results depend on the processing

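Counts of called genes moved with the settings, given here as higher and lower. Against the other microglia-class cells (225 and 827), MHC class II-low border cells (416 and 735), Sall1/Adgrg1/Slc2a5-high cells (733 and 888) and border-gene-low cells (940 and 1001), 2-fold of the summed CPM alone gave 822 and 1668, 1186 and 1545, 1657 and 1817, and 1842 and 2084. Plate A alone gave 944 and 2050, 1257 and 1926, 1818 and 2052, and 2307 and 2130, and plate B alone gave 1181 and 2325, 1579 and 2144, 2100 and 2308, and 2064 and 2524. With no minimum level the first comparison had 371 and 2221, the second 649 and 1574, and the third 1354 lower. With a minimum of 50 CPM the first 3 had 375, 405 and 577 lower. A pseudocount of 10 left 136 higher in the first and 274 in the second. Without the cell richest in each gene, an alternative chosen after seeing the data, 83, 182, 437 and 573 were higher. The number of MHC class II-high border cells ran from 47 to 56 over other limits of the rule. Without the members that had 10 or more Tmem119 reads, the log2 ratio of Tmem119 turned to -2.67 against MHC class II-low and -3.18 against border-gene-low cells, since that alternative removes its carriers. It also kept 108 of the 225 genes higher than in the other microglia-class cells and 225 of the 416 higher than in MHC class II-low border cells, with 38 members left. Depth limits statements on genes read in few cells, Ciita among them. No paired analysis was possible because no label ties cells to animals and the numbers in the labels only name single cells. Plates are not replicates of a group, and within-plate ratios stand in the calls.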

Other observations

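Among genes of uptake and iron handling, most were not called when MHC class II-high border cells were set against MHC class II-low border cells, and those called were mainly border genes. Of 20 measured scavenger receptors and lectins, 7 were lower and 1 higher, with a median log2 ratio of -0.81 against -0.08 over all measured genes. The higher gene was Clec7a, the receptor for fungal glucans, at 444 against 170 CPM. Of 9 measured iron and heme genes, Slc40a1, Tfrc, the transferrin receptor, and Cd163 were lower and none was higher. The lower genes Clec4n, Clec10a, Lyve1, Cd163, Cd209f and Slc40a1 are also in the border list and are counted again here. Of 17 measured inhibitory receptors, 1 was higher, 2 were lower and 14 were not called, near the 5.55% and 9.81% over all measured genes. Cd72 was the higher one, while Cd200r1, the receptor of CD200, was lower at 54.0 against 205 CPM and Cd300a at 190 against 488.

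Inflammatory genes differed singly. Cxcl10, a chemokine induced by interferon, was higher at 264 against 36.5 CPM. Of 20 measured interferon-stimulated genes none was higher and Gbp2 was lower. Over all measured genes 5.55% were higher and 9.81% lower, so counts this small in a short list say little. Il1b, an inflammatory cytokine, was higher at 163 against 38.2 CPM and was lower than the 1095 CPM of border-gene-low cells. Of 16 measured genes of disease-associated microglia, Axl, Clec7a, Cd9, a tetraspanin, and Cd52 were higher, and Ctsd, cathepsin D, was lower, though not without the highest cell. None of 16 measured immediate early genes and none of 9 heat shock genes was called, and Fos stood at 4579 against 4478 CPM.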
